A study of Homo sapiens and Mus musculus with 4 samples.

Results

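The genes of the colony-stimulating factors CSF1, CSF2 and CSF3 and of their receptors CSF1R, CSF2RB and CSF3R were examined in lists of ATF4 binding sites. Members were the listed peaks that overlapped one of these 6 genes, or its mouse orthologue, with 20 kb added on each side. In KG1a cells, 1 of the 873 listed peaks met this rule. In mouse bone marrow, 4 of the 83088 listed peaks lay within 40 kb of the approximate position of Csf3r, the only mouse gene whose position was used here. The peaks were chosen by their listed positions, which are the measured values here, so their presence is a description and was not tested.

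Colony-stimulating factors are secreted proteins that drive the growth and maturation of white blood cells. CSF3, or G-CSF, acts through CSF3R and supports neutrophil production. CSF1, or M-CSF, acts through the kinase receptor CSF1R on monocytes and macrophages. CSF2, or GM-CSF, acts on granulocytes and macrophages through a pair of chains, the specific chain CSF2RA and the signalling chain CSF2RB, which is shared with the receptors for interleukin-3 and interleukin-5. ATF4 is a basic leucine zipper transcription factor whose translation is favoured when stress kinases slow protein synthesis, and which can pair with C/EBP proteins, themselves regulators of granulocyte genes.

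ATF4 was mapped by ChIP-seq, which sequences DNA recovered with an antibody against a bound protein, in KG1a, an acute myeloid leukaemia cell line grown with 20% serum, and in bone marrow cells of C57BL/6 mice. The groups were KG1a ATF4 ChIP, KG1a input, mouse bone marrow ATF4 ChIP and mouse bone marrow input, with 1 library each, precipitated with an anti-ATF4 antibody or, for input, with none. The labels name no treatment, genotype or age, and do not say how many mice gave the marrow or which marrow cells were present. Each deposited list holds the peaks of a ChIP library against its input. The lists carry only chromosome, start and end, so binding strength and read depth are unknown, and with no replicates a peak has no replicate check. Peak positions alone cannot check the labelled cell type.

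CSF3, the G-CSF gene, was the only member gene with a KG1a peak in its window, and the peak lay inside the gene. It spanned chr17:40017259-40017775 (GRCh38, as are all KG1a positions here), within the 2374 bp of CSF3 at chr17:40015440-40017813. The peak began 1819 bp from the low-coordinate end of the gene and stopped 38 bp short of its high-coordinate end, covering 21.8% of the gene. CSF3 is transcribed towards higher coordinates, as background knowledge that was not read from the gene table, so the peak occupies the 3′ part of the gene and not its start. Whether it falls on an exon or on the 3′ untranslated region was not determined.

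The CSF3 peak was wide and early in its list. Its width of 517 bp ranked 41 of 873, and 95.3% of listed peaks were narrower, where the median width was 341 bp and the interquartile range 323 to 371 bp. It stood in place 5 of the deposited order. Places 1, 7 and 8 of the same list held the peaks at EEF1A1, CHAC1 and YARS1, which encode a translation elongation factor, an enzyme that degrades glutathione and the tyrosyl-tRNA synthetase. Places 4 and 10 also held peaks that overlapped a protein-coding gene. Places 2, 3, 6 and 9 held peaks that overlapped no protein-coding gene and lay 3720, 188, 12.5 and 0.491 kb from the nearest. Of the first 10 peaks, 6 overlapped a protein-coding gene, against 453 of 869 peaks, or 52.1%, over all chromosomes. Wide peaks were common among these 10. Those at EEF1A1, CHAC1 and YARS1, at 1183, 753 and 547 bp, were wider than that of CSF3. So were those in places 6 and 10, at 1023 and 546 bp. The files do not say how the list was ordered, so the place is not read as strength.

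**Figure D1:**
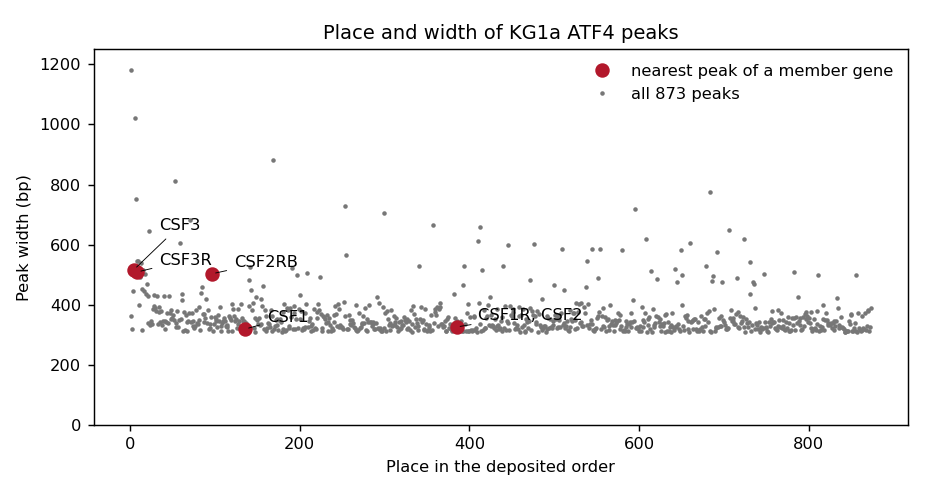
Width in bp (vertical axis) against place in the deposited order (horizontal axis) for all 873 KG1a peaks, with the peaks nearest to the member genes in red. The peak inside CSF3, in place 5, and the peak nearest to CSF3R, in place 9, stand at 517 and 509 bp. The peak nearest to CSF2RB is 503 bp wide, and those nearest to CSF1 and to CSF1R and CSF2 are 319 and 326 bp wide.

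A peak inside so short a gene was uncommon in the list. Of the 1940 protein-coding genes up to 3 kb long, 4 had a peak in the span, or 0.206%, and CSF3 was among these. CSF3 was chosen with its peak known, so this share is a description and was not tested. Over all 20037 protein-coding genes the share with a peak in the span was 2.26%. The 429 genes with a peak centre inside had a median length of 103 kb, against 24.1 kb for all protein-coding genes, and only 2 of them were shorter than CSF3.

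Among those genes, those most like CSF3 in gene length, peak width and distance of the peak centre to the nearer gene end included EEF1A1, APOA1, TFPI2 and ZIC2. APOA1 encodes an apolipoprotein. Its peak, at chr11:116836555-116836901, was 347 bp wide and centred 894 bp from the high-coordinate end of a gene of 1.87 kb. In CSF3 the centre lay 296 bp from the high-coordinate end. ZIC2, the gene of a zinc finger transcription factor, had its peak in place 10. The likeness is a distance on the log10 scale of those 3 measures, from 0.516 for EEF1A1 to 0.632 for ZIC2 among these 4, over 428 genes compared, and uses no information on function.

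The neighbours of CSF3 shared the same peak within 20 kb. MED24, which encodes a Mediator subunit, began 1.33 kb beyond the peak on the high-coordinate side. As MED24 lies on the minus strand, that end is its 3′ end, and its promoter window was 36.6 kb from the peak. PSMD3, which encodes a proteasome subunit, lay 19.3 kb away on the other side. The next listed peaks on chromosome 17 were 332 kb below and 2.25 Mb above. The gap below was short for this list, where a gap of 0.324 Mb ranked 743 of 847 from the longest.

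CSF3R, the G-CSF receptor gene, had no peak within 20 kb, and its nearest peak lay 79.1 kb away. Only 8.32% of protein-coding genes had a peak as near or nearer. This peak spanned chr1:36386415-36386923, was 509 bp wide and stood in place 9, 4 places after that of CSF3. It lay beyond the 3′ end of CSF3R, which is on the minus strand at chr1:36466043-36483314. LSM10, OSCP1 and MRPS15, the 3 protein-coding genes between, separate the receptor gene from it. LSM10 encodes a component of the particle that processes histone RNAs and MRPS15 a mitochondrial ribosomal protein.

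The protein-coding gene nearest to that peak was STK40, which encodes a serine/threonine kinase of the pseudokinase type. The peak started 491 bp upstream of the STK40 start, which lies at the high-coordinate end of this minus-strand gene. It also lay inside the long non-coding RNA gene LOC124904012, 224 bp from its low-coordinate end. LSM10 was 6.51 kb away. The peak is therefore listed here as the one nearest to CSF3R, and its assignment to that gene is not shown by distance.

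**Figure D2:**
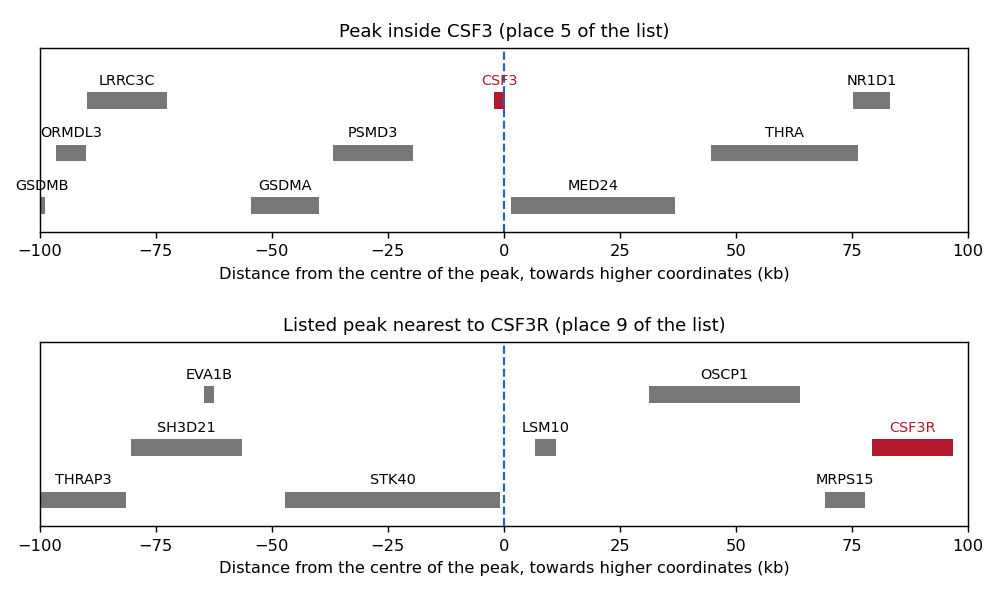
Protein-coding genes (bars) within 100 kb of the centre of a KG1a peak (dashed line), by distance in kb, with the member gene in red. In the upper panel the peak falls inside CSF3, and in the lower panel it falls beside STK40, 79.1 kb from CSF3R.

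Promoter sequences from RefSeq (GRCh38.p14, 250 bases before to 50 after a start, 5′ to 3′ on the gene's strand) matched 3 of the 6 members, CSF3R, CSF2 and CSF1R, with 5 windows. CSF3, CSF1 and CSF2RB had no entry. None of the 5 windows overlapped a KG1a peak, and over all 35116 windows 0.202% did. Shown are both windows of CSF3R, which lie 95.9 and 96.3 kb from the nearest peak, and that of STK40, which ends 241 bp short of it. Capitals mark matches to the motifs searched.
CSF3R, chr1:36482864-36483163, minus strand: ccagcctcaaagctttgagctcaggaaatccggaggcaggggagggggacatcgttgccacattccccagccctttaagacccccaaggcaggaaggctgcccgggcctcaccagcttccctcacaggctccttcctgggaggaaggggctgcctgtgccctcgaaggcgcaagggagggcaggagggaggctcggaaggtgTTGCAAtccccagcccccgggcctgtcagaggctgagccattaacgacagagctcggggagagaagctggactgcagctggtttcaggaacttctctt
CSF3R, chr1:36483265-36483564, minus strand: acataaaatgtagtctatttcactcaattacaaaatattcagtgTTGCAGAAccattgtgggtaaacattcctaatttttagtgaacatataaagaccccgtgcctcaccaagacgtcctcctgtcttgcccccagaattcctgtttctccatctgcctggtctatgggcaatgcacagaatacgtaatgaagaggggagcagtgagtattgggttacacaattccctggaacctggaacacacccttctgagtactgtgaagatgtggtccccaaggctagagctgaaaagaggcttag
STK40, chr1:36385875-36386174, minus strand: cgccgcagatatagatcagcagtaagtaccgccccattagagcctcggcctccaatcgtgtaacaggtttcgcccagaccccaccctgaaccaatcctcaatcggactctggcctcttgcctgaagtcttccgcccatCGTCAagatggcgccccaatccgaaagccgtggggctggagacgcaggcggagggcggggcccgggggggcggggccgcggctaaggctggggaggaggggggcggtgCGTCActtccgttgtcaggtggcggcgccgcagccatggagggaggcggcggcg

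The motifs were searched on both strands. They were the C/EBP-ATF composite TGATGNAAN and its exact form TGATGCAA, the full cAMP response element TGACGTCA, its core TGACG, and the C/EBP motif TTGCNNAA. The core lies within the full element, and the exact form within the composite. The C/EBP core TTGCAA was added after the sequences had been seen. In the first CSF3R window the capitals are TTGCAA, which starts 48 bases before the transcription start and occurs in 5.51% of all windows. In the second they are TTGCAGAA, a match to TTGCNNAA, which occurs in 10.5% of windows. In STK40 they are CGTCA, the reverse complement of TGACG, 112 and 4 bases before the start, and 24.6% of windows hold that core. The windows of CSF2 and CSF1R held no match to any of these motifs. The composite, which 3.61% of all windows hold, its exact form, in 0.866%, and the full element, in 1.85%, were in no window of a member gene. These matches are letters in a window and show no binding.

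Neither of the other ligand genes had a listed KG1a peak within 100 kb. CSF2, the GM-CSF gene at chr5:132073789-132076170, was 701 kb from its nearest peak, and 40.7% of protein-coding genes were as near or nearer. CSF1, the M-CSF gene at chr1:109910506-109930992, was 1.86 Mb from its nearest peak, and 69.2% of genes were as near or nearer. The median distance over all protein-coding genes was 961 kb, with an interquartile range of 355 to 2290 kb. The distance of CSF2 was within that range, and so was that of CSF1.

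The receptor chains differed widely in distance. CSF2RB, at chr22:36913628-36940439, lay 674 kb from its nearest peak, which was 503 bp wide and in place 97. CSF1R, at chr5:150053295-150113365, lay 18.7 Mb from its nearest peak, and 99.0% of protein-coding genes were as near or nearer. CSF2RA, which partners CSF2RB and lies on the X chromosome at 1268814 to 1325218 in the table used, was 22.7 Mb from its nearest peak. The X chromosome had 9 peaks in all. CSF2RA lies in the region that X and Y share, where a read can match either chromosome, so a missing peak there says less than elsewhere.

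**Figure D3:**
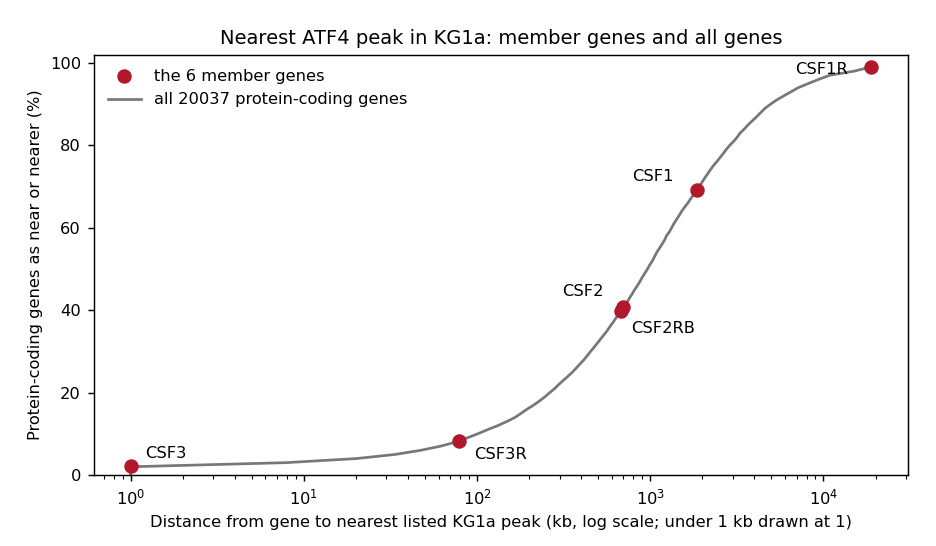
Distance from each member gene (red) to its nearest listed KG1a peak in kb on a log axis, against the share of the 20037 protein-coding genes (grey line) that are as near or nearer. CSF3 and CSF3R lie at 2.26% and 8.32%, CSF2RB, CSF2 and CSF1 between 39.7% and 69.2%, and CSF1R at 99.0%.

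CSF2 and CSF1R shared a stretch of chromosome 5 without a listed peak. It ran from 131373090 to 176539154, 45.2 Mb, and was the second longest of the 847 gaps between neighbouring KG1a peaks. The longest, 48.4 Mb, was on the X chromosome. The stretch holds 368 protein-coding genes, among them IL3 and IL5, which encode the other cytokines that signal through CSF2RB. Chromosome 5 carried 25 peaks, or 13.8 per 100 Mb, against 28.5 over all chromosomes, and chromosome 17, which carries CSF3, had 33.7. The input reads over this stretch were not analysed here.

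Counted together, 1 of the 6 member genes had a peak within 20 kb. Of all protein-coding genes, 3.98% had one. Within 100 kb the number was 2 of 6, CSF3 and CSF3R, where 9.93% of all genes had one. The median distance of the members was 687 kb, against 961 kb for all genes. CSF3 was chosen with its peak known and enters that median with a distance of 0. The lower median is therefore not read as a trait of these genes. CSF3 sits inside the 20 kb limit with a distance of 0 and CSF3R is the next one outside it at 79.1 kb, so no member lies near the limit.

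Genes that act with the members were then taken from 4 lists of 41 genes. Of the 6 further ligand and receptor genes (CSF2RA, IL3, IL3RA, IL5, IL5RA and IL34), 0 had a peak within 20 kb, where 3.98% of all protein-coding genes had one, so a list of this size cannot show a deficit. IL34, the other ligand of CSF1R, was the nearest, at 33.1 kb. The median distance in this list was 2090 kb, against 961 kb over all genes. CSF2RA and IL3RA lie close together on the X chromosome, both 22.7 Mb from a peak. IL3 and IL5 lie in the same stretch of chromosome 5. The 6 genes are thus not 6 separate places, and the larger median is not read as a trait of the list.

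Signalling genes below these receptors had 3 of 12 members with a peak within 20 kb, where 3.98% of all protein-coding genes had one, and all of them were STAT genes of a cluster on chromosome 17. STAT3 is the main STAT factor below CSF3R, and STAT5A and STAT5B act below CSF2RB. STAT3 held a pair of peaks inside the gene, at chr17:42327346-42327726 and chr17:42347215-42347549, of 381 and 335 bp in places 331 and 332. STAT5B held a peak inside the gene at chr17:42269663-42270013, 351 bp wide in place 502. STAT5A had none inside, and the peaks of its neighbours lay 15.4 and 17.4 kb from it. The count of 3 genes thus rests on 3 peaks of a single neighbourhood, which is also where the next peak above CSF3 lies, 2.25 Mb away. None of the 3 was in the first 25% of the list.

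The kinase genes JAK1, JAK2 and TYK2, which pass the signal from the receptors to STAT proteins, had no peak within 20 kb. Nor had SOCS1 and SOCS3, whose products restrain such signals. CISH, an inhibitor induced by STAT5, had a peak 36.7 kb away. The median distance over the whole signalling list, with the clustered STAT genes included, was 225 kb, against 961 kb over all genes.

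Regulators of granulocyte and macrophage genes had 2 of 10 members with a peak within 20 kb, where 3.98% of all protein-coding genes had one. MYB, a proto-oncogene of immature blood cells, had a peak inside the gene at chr6:135201569-135201895, 327 bp wide and in place 872 of 873. CEBPA, which encodes a C/EBP factor needed for granulocyte formation and for expression of CSF3R, had a peak 16.2 kb from its low-coordinate end at chr19:33283466-33283775. That peak was 310 bp wide, the smallest width in the list, and in place 725. SPI1, CEBPB, CEBPD, CEBPE, RUNX1, GFI1, IRF8 and KLF4 had none within 20 kb.

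In mouse bone marrow the position of Csf3r was taken as about 126.02 Mb on chromosome 4 (GRCm38). The ends of the mouse gene were not used here, so it cannot be said which peaks lie inside it. A distance of 40 kb each side was chosen to take in a gene of the size of human CSF3R, 17272 bp, with 20 kb around it. Peaks of this list within that window numbered 4.

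Of these, 3 lay on the low-coordinate side within 9.22 kb of each other. The first, chr4:125983591-125990427, was 6837 bp wide, and 99.5% of mouse peaks were narrower. The second, chr4:125990771-125991179, was 409 bp wide, and the third, chr4:125992510-125992814, 305 bp. The fourth peak, chr4:126042606-126043284, lay on the high-coordinate side, 22.6 kb from the position used, and was 679 bp wide. The mouse list had a median width of 544 bp and quartiles at 361 and 974 bp. So the window joined a broad domain of enrichment, narrow peaks beside it and a separate peak of more usual width.

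Between the third and the fourth peak lay 49.8 kb without a listed peak, and this stretch held the position used for Csf3r. The median gap between neighbouring mouse peaks was 7.54 kb, with an interquartile range of 0.844 to 38.3 kb. Of all gaps, 80.2% were shorter. A gap picked because it holds a given position tends to be long, as longer gaps hold more positions. This share therefore does not show that the gap is unusual. No peak lay within 20 kb of the position, where 51.5% of 40 kb windows over the mouse chromosomes hold a peak. The position is approximate and the ends of the gene were not used. An empty stretch around it therefore does not show that Csf3r itself, or the 20 kb beside it, lacks a peak.

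**Figure D4:**
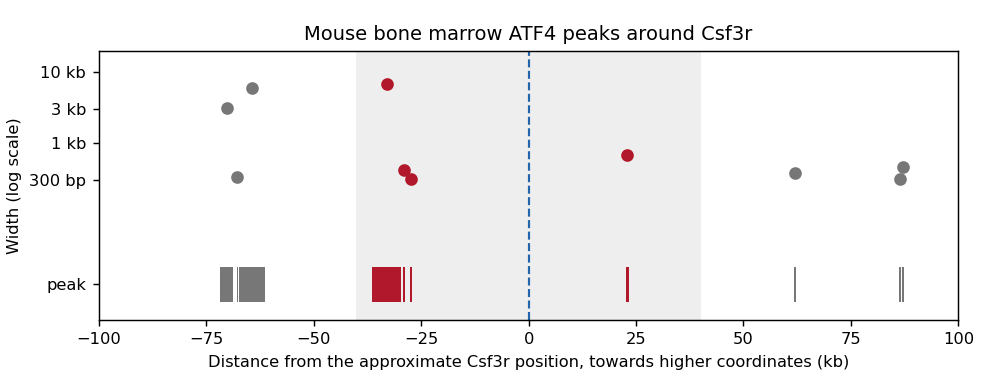
Mouse bone marrow peaks within 100 kb of the approximate Csf3r position (dashed line), drawn to scale below and by width on a log axis above. The 4 peaks of the 40 kb window (shaded) are red, and the 3 on the low side include the broad peak of 6.84 kb, while no peak lies within 20 kb of the position. The ends of the gene are not drawn, so a peak may lie inside it.

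Set beside the rest of the mouse genome, the 80 kb window around Csf3r had more covered bases than most. Its number of peaks was less unusual. Of 33965 windows of 80 kb, 71.7% held a peak and 27.4% held at least 4, with a median of 2. Peaks covered 8.23 kb of the Csf3r window, or 10.3%, against a median of 1.06 kb, and 5.34% of windows had at least as much covered. Most of it came from the peak of 6.84 kb. Within 20 kb of the position no base was covered, where the median window of 40 kb had 0.279 kb covered. Within 100 kb there were 10 peaks, where the median window of 200 kb held 5 and 21.0% held at least as many. Of the 10, 3 were wider than 2 kb, a width that 9.38% of the list exceeded. The further broad peaks, of 5.90 and 3.10 kb, lay 61.4 and 68.7 kb from the position.

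**Figure D5:**
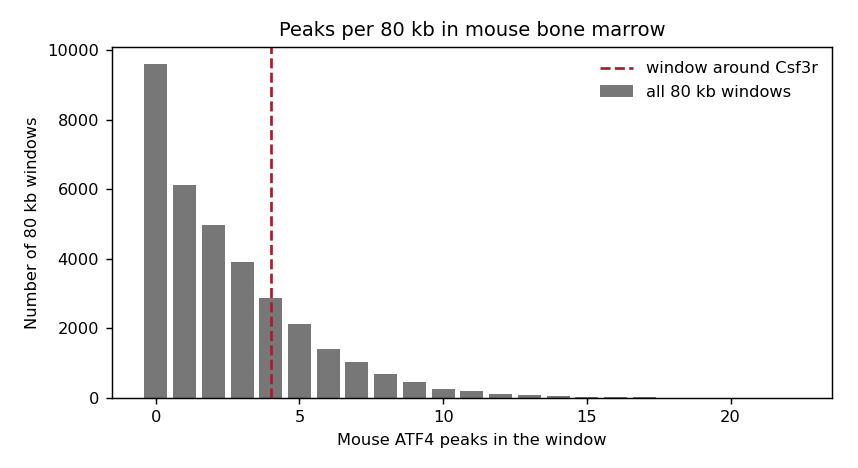
Number of 80 kb windows (vertical axis) by the number of mouse bone marrow ATF4 peaks in them (horizontal axis), with the window around Csf3r marked by the dashed line. The Csf3r window, with 4 peaks, is matched or exceeded by 27.4% of windows, and the median window held 2.

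For the G-CSF receptor gene both lists could be described. The mouse list had a peak 22.6 kb and another 27.2 kb from the position used for Csf3r, and the KG1a list had its nearest 79.1 kb from CSF3R. The lists differ in peak number, 83088 in mouse and 873 in KG1a, and come from different species with unknown depth, so these distances were not compared.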

How the data were processed

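The deposited lists give each peak's chromosome, start and end in 3 columns without a header. These positions, in bases as the authors deposited them, are the only values of the lists, with no height, score or other unit. The tools named, per the submitters' processing notes, are MACS2, Bowtie2, deepTools and CASAVA 1.4, and the builds GRCh38 and GRCm38. Caller settings and thresholds are not given in the sources used here. Each list comes from 1 ChIP library against 1 input library.

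Starts were read as counted from 0 and are printed counted from 1. KG1a peaks were set against the 20037 protein-coding genes of the RefSeq table of GRCh38.p14, with a minimum overlap of 1 base. Strands came from the RefSeq promoter table. Distances run from the peak edge to the gene span. Gaps are stretches between neighbouring peaks of a chromosome, centromeres included. Mouse windows of 80 kb were tiled end to end up to the last peak of each chromosome. The tools were Python 3.11.15, pandas 2.3.3 and numpy 2.4.6, and the overlap code was tested on simulated data.

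The members and gene lists were chosen with earlier results of these data known, so no p-value was computed. The genes named are the members, CSF2RA, protein-coding genes sharing a member's peak, listed genes with a peak within 20 kb and the 5 genes most like CSF3, of which 4 are named. Some genes are not reported here. Other genes, such as those beside the peak nearest to CSF3R, the first places of the list, and IL34 and CISH, were named after their values were seen. Depth is unknown, so the precision of a peak cannot be given.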

Additional observations from a re-analysis of the deposited data

How the results depend on the processing

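The counts of KG1a member genes and of peaks in their windows were 1 each with 0, 5, 10 or 50 kb added to the gene, with the peak centre required inside the window, in the widest 25% of the list and in the first 25% of its order. With 100 kb each side both counts were 2, as the peak nearest to CSF3R entered. The mouse count around Csf3r was less stable. It was 4 as reported and with peak centres, 0 within 20 kb, 10 within 100 kb, 1 in the widest 25% and 1 in the first 25% of the list, as the bases or peaks searched changed. The other gene lists were recomputed under alternatives added after seeing the data. The count of signalling genes was 0 in the first 25% of the list, against 3 as reported. That of regulators was 1 with 0, 5 or 10 kb, where CEBPA dropped out, and 0 in the widest or first 25%. A part of the list puts a peak near fewer genes of any kind, so a lower count there is no result about these genes. Further ligand and receptor genes had 1 within 50 or 100 kb, and other cytokine and growth factor genes 1 within 50 kb and 3 within 100 kb, against 0 each as reported. Counts of mouse genes with a peak were not run, because only the position of Csf3r was used. No paired analysis was possible because each group has 1 library and no test was made. Unknown depth limits all of it, since a missing peak may reflect too few reads, and a longer list places a peak nearer to any gene.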

Other observations

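No KG1a peak was listed within 20 kb of a list of other cytokine, growth factor and receptor genes. Of its 13 genes (KIT, KITLG, FLT3, FLT3LG, EPO, EPOR, THPO, IL6, IL6R, IL6ST, LIF, LIFR and CXCL8), 0 had a peak within 20 kb and 3 had one within 100 kb, where 3.98% and 9.93% of all protein-coding genes did. At such a share, a list of this size cannot show a deficit within 20 kb. KIT, the receptor of stem cell factor, was the nearest, with a peak of 317 bp at chr4:54619254-54619570, 38.4 kb from the gene. FLT3LG, the ligand of FLT3, had a peak 68.1 kb away, and IL6, the interleukin-6 gene, one 96.8 kb away. These genes were named after their values were seen. The median distance in this list was 440.0 kb, against 961 kb over all genes.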
